A study of Mus musculus with 6 samples.

Results

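The cytosolic ribosomal protein genes make up 83 of the 40879 genes in the count table, 51 of the large subunit (Rpl, Rplp) and 32 of the small subunit (Rps, Rpsa). They were taken by symbol: Rpl or Rps followed by a number and at most one of the letters a, x or l, together with Rplp0, Rplp1, Rplp2 and Rpsa. The pattern also takes in paralogs and 3 rows with weak standing as genes: RefSeq lists Rps4l as a transcribed pseudogene and Rpl6l as a pseudogene, and GENCODE lists Rpl32l as a processed pseudogene. It leaves out 7 relatives that carry other names, among them Fau, Rack1, Rps3a1, Rpl22l1, Rpl7l1 and Rpl36al, which were described separately.

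Poly-A RNA was sequenced from the CD8 T cells of MC38-hPD-L1 tumours that had grown for 12 days in C57BL/6N mice. MC38 cells derive from a mouse colon carcinoma. The 3 Biotin+ libraries hold cells that carried biotin after deep-red photocatalytic proximity labelling and are described as neighbouring the tumour, and the 3 Biotin- libraries hold cells without biotin, described as distal to it. Both groups were T cells of labelled MC38-hPD-L1 tumours and were parted by the same flow sort. The sources used here do not state the age, sex or number of the mice or any pooling, so p-values cover only the spread between these samples.

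Ribosomal proteins assemble with ribosomal RNA into the small subunit, which reads the mRNA, and the large subunit, which joins amino acids. Their mRNAs are among the most abundant in any growing cell and begin with a tract of pyrimidines at the 5′ end (the TOP motif), through which mTORC1 and LARP1 control their translation and stability together. In T cells the amount of translation machinery grows on activation, under the control of mTORC1 and MYC.

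Because the members vary together, the start regions of 6 of them are shown, 60 bases before and 30 bases after the annotated start, from the RefSeq promoter table on GRCm38.p6. They are members whose values stand out below: Rps15a, Rpl41, Rps26 and Rpl10 at the ends of the order of group differences, and Rps7 and Rps6 at the ends of the order in Biotin+ replicate 2. Capitals mark CTCTTT, a pyrimidine run like those at the start of TOP mRNAs, and CCGGAAG, the core of a site for ETS and GABP factors, or its reverse complement CTTCCGG.
Rps15a, chr7:118116118-118116207, minus strand: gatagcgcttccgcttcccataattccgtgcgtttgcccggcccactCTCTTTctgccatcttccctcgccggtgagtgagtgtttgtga
Rpl41, chr10:128549139-128549228, minus strand: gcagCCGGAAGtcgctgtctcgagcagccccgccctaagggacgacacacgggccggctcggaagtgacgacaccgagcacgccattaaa
Rps26, chr10:128626477-128626566, minus strand: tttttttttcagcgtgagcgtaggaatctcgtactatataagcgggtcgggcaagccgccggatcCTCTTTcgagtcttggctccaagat
Rpl10, chrX:74270756-74270845, plus strand: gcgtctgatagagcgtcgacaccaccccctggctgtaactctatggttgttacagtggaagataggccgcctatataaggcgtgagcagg
Rps7, chr12:28635924-28636013, minus strand: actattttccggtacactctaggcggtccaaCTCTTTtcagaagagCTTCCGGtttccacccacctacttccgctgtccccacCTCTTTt
Rps6, chr4:86857338-86857427, minus strand: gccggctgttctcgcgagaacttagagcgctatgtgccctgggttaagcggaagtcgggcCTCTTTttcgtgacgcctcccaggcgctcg

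CTCTTT stands in the printed part of Rps15a, Rps26, Rps7 and Rps6, whichever end of an order they hold, and neither motif stands in that of Rpl10. Only in Rps6 does it begin at the annotated start. It lies after the start in Rps26, wholly before it in Rps15a, and on both sides of it in Rps7. Over whole windows of 300 bases, 250 before and 50 after the start, the table held 73 windows for 61 of the 83 members. CTCTTT on the gene's strand was in 26 of the 73 member windows (35.6%), against 12.0% of 32778 windows of other genes. On the opposite strand it was in 9.59% of member windows and 12.4% of the others. CCGGAAG on the gene's strand was in 23.3% of member windows and 4.73% of the others, and its reverse complement in 13.7% and 4.77%. A match of CTCTTT cannot overlap one of CCGGAAG, whereas CCGGAAG and its reverse complement can share letters. These are matches, anywhere in a window, of letters chosen with the data known. They say nothing of binding, and most of each window lies before the start, so they do not count TOP tracts.

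The libraries held 16440614 to 19640693 counts in Biotin+ and 16423106 to 19035864 in Biotin-. The labelled cell type was visible in every library: Cd8a had 1226, 1289 and 1162 CPM (counts scaled to library depth with TMM factors) in Biotin+ and 591, 865 and 502 CPM in Biotin-, whereas Cd4 was between 0.848 and 1.62 CPM in Biotin+ and between 2.27 and 5.45 CPM in Biotin-. The groups differed in markers of other cells. The 17 fibroblast and endothelial markers summed to 0.0249% to 0.0499% of counts in Biotin+ and to 0.163% to 0.309% in Biotin-, and 9 of the 13 tested were lower by edgeR. The 14 macrophage and monocyte markers summed to 0.0590% to 0.214% in Biotin+ and to 0.123% to 0.417% in Biotin-, with none called by that test. With the replicate number as a block, where 12% of all genes were lower, 11 of the 13 and 4 of the 14 markers were lower. The part of these markers in the results below was not tested.

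Together the members took 13.6%, 18.5% and 13.6% of all counts in Biotin+ replicates 1, 2 and 3, and 13.2%, 14.3% and 14.1% in Biotin- replicates 1, 2 and 3. The mean share was 15.2% ± 2.83 (SD, n = 3) in Biotin+, against 13.9% ± 0.621 (SD, n = 3) in Biotin-. Biotin+ replicate 2 lay above all other libraries, while Biotin+ replicates 1 and 3 lay inside the range of Biotin-. The difference of 1.37 percentage points was smaller than the spread within Biotin+ (two-sided exact permutation test, p = 0.8; with 3 against 3 the smallest p is 0.1). Without Biotin+ replicate 2 it turned to -0.265 points (exact p = 0.6). At this depth counting error is small, with a 95% Wilson interval of 18.48% to 18.52% in Biotin+ replicate 2, which covers counting error only. In bulk samples, a different make-up of cells and a different amount of these mRNAs per cell cannot be told apart.

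**Figure D1:**
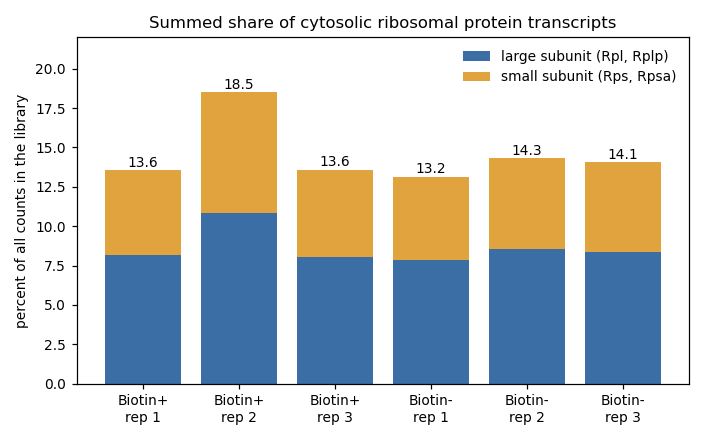
Percent of all counts in each library (vertical axis) taken by the large subunit members (blue) and the small subunit members (amber), 1 bar per library with the sum above it. Biotin+ replicate 2 stands at 18.5%, and the other 5 libraries lie between 13.2% and 14.3%.

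The balance between the subunits differed between the groups by less than the spread between replicates. Small subunit counts over large subunit counts came to 0.669, 0.707 and 0.685 in Biotin+ and to 0.681, 0.681 and 0.689 in Biotin-, a mean of 0.687 ± 0.0190 (SD, n = 3) in Biotin+, against 0.684 ± 0.00429 (SD, n = 3) in Biotin-. The highest ratio was again that of Biotin+ replicate 2.

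The 76 members with a mean of at least 10 CPM (45 large, 31 small) form the expressed family. Their levels per kilobase of transcript, which can be compared between genes, had a median of 2070 CPM per kb over the 6 libraries and ran from 147 to 5881. At the top stood Rpl13a, a large subunit protein also known for silencing inflammatory mRNAs, with 5941, 9666 and 5134 CPM per kb in Biotin+ and 4764, 4720.1 and 5061 CPM per kb in Biotin-. Next was Rplp1, a protein of the acidic stalk that recruits translation factors, with 4892, 8093 and 4898 CPM per kb in Biotin+ and 5646, 5220.5 and 5942 CPM per kb in Biotin-. These neighbours did not differ beyond their spread, and their order turned between the groups: Rpl13a led on average in Biotin+ and Rplp1 in Biotin-. Rps14, Rps18 and Rplp0 followed with means of 4825, 4735 and 4406 CPM per kb over all libraries. For Rps15a and Rps20, whose reference transcripts have 5130 and 3706 bases, a level per kilobase depends on the transcript chosen and is uncertain.

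7 members lay under 10 CPM. Of the tissue-restricted paralogs, Rpl10l, known from testis, had no count in any library, where 3 counts correspond to at most 0.183 CPM. Rpl3l, known from muscle, had 1 count in Biotin+ replicate 3 and 1 in Biotin- replicate 1. Rpl39l, also known from testis, had 27, 9 and 0 counts in Biotin+ and 25, 6 and 0 in Biotin-, so same-numbered libraries were alike and the groups overlapped. These 3 were left out by the filter on low counts. Rps4l, Rpl6l and Rpl32l averaged 2.21, 4.24 and 0.711 CPM in Biotin+ and 2.04, 3.65 and 0.789 CPM in Biotin-.

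Rpl28, a canonical large subunit protein, had 0.971, 1.25 and 1.82 CPM in Biotin+ and 0.876, 1.59 and 1.57 CPM in Biotin-, far below every other canonical member. In the GENCODE annotation 16.6% of its exon bases overlap Ube2s. In the same annotation 59.3% of the exon bases of Rpl13a and 55.4% of those of Rpl23a overlap other genes. Overlaps were counted on either strand. The part of overlap in the low count of Rpl28 was not tested. Rps27l, a paralog of Rps27 induced by p53, was the 1 listed paralog above 10 CPM, with 65.7, 114 and 71.9 CPM in Biotin+ against 65.8, 59.6 and 62.8 CPM in Biotin-. Rps27 itself had 1480.2, 2115 and 1264 CPM in Biotin+ and 1230.0, 1340.2 and 1454 CPM in Biotin-.

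Most members have near-identical copies elsewhere in the genome. Of the 76, 74 shared at least one stretch of 75 bases with another annotated transcript, 38 shared more than 50% of such stretches, and the median was 49.4%. Rps27 shared 98.5%, and Rps3 shared none. The 23 rows named as pseudogenes of ribosomal proteins (-ps) held only 0.00461% to 0.00746% of counts. How the authors counted reads with several matching genes is not stated in those sources, so single members with many copies are uncertain.

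Between the groups, 0 members passed as higher and 0 as lower of the 80 tested, by edgeR's quasi-likelihood test with Benjamini-Hochberg adjustment over 13360 genes at 0.05. Across all genes tested, 1.53% were called higher and 6.72% lower. Before adjustment, p was under 0.05 for 2 members that were higher and for 0 that were lower. DESeq2 and limma-voom with sample weights also called 0, with 6 and 4 higher members under 0.05 before adjustment, and 0 lower in each. The fitted differences leaned one way under this scaling: 79 of the 80 log2 fold changes (Biotin+ over Biotin-) were positive, with a median of 0.35, against 0.06 for all genes tested. They ran from -0.15 to 0.68. Biotin+ replicate 2 carried much of this: over the 76 expressed members the median was 0.36, and 0.07 without that library. Scaled to 15 CD8 T identity genes in place of TMM, the sign turned, with a median of -0.46 and 29 members lower. Under that scaling 31.4% of all genes were lower, and the median over all genes was -0.72. By TMM the 15 genes were themselves higher in Biotin+. All 15 log2 fold changes were positive, with a median of 0.73, and edgeR called 5 of them higher.

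Group ranges of TMM-scaled CPM did not overlap for 17 of the 76 members, each higher in Biotin+, among them Rpl13a, Rpsa, Rps3, Rpl11 and Rpl38. This depends on the scaling. By share of counts the groups overlapped for Rpl13a, Rpsa, Rps3 and Rpl38, and stayed apart for Rpl11. Rpl13a, for example, took 0.540% in Biotin+ replicate 3 and 0.597% in Biotin- replicate 3. Over all genes tested, 13.4% lay wholly higher in Biotin+. Rpl38, a large subunit protein whose loss alters skeletal patterning in mice, had 794, 1116 and 723 CPM in Biotin+ and 550.3, 588 and 658 CPM in Biotin-. Its log2 fold change was 0.55 ± 0.23 (SE, n = 3 each; edgeR adjusted p = 0.182), the lowest adjusted p of any member.

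Libraries with the same replicate number vary together, so pairs were also compared. By TMM-scaled CPM, the median log2 ratio of Biotin+ over Biotin- was 0.24 in pair 1, 0.69 in pair 2 and 0.15 in pair 3. Of the 76 members, 69, 76 and 59 were positive, and 58 were positive in all 3 pairs. How many of all genes were positive in all 3 pairs was not counted. By summed share of counts, Biotin+ was higher in pairs 1 and 2 and lower in pair 3 (13.6% against 14.1%). The direction in pair 3 thus depends on the scaling. With the replicate number as a block, edgeR called 4 members higher and 0 lower, while 5.6% of all genes were higher and 12% lower. With 80 members tested, the 4 higher calls are near the share over all genes. The 4 were Rps15a, Rps26, Rpl41 and Rpl37.

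Rps15a, a small subunit protein, had 1862, 3655 and 1718 CPM in Biotin+ and 1294, 1944 and 1299.6 CPM in Biotin-. Biotin- replicate 2 lay above Biotin+ replicates 1 and 3, so the groups overlapped, although each Biotin+ library was above its Biotin- partner. The log2 fold change was 0.67 ± 0.32 without the block (edgeR adjusted p = 0.252) and 0.61 ± 0.17 with it (edgeR adjusted p = 0.0212; SE, n = 3 pairs).
Rps26, a protein of the mRNA exit channel, had 1539.7, 2991 and 1783 CPM in Biotin+ and 1223, 1663 and 1177 CPM in Biotin-, and its blocked log2 fold change was 0.59 ± 0.17 (edgeR adjusted p = 0.0251). Its groups overlapped through Biotin- replicate 2 as well.
Rpl41, a very short basic peptide, had 2007, 4347 and 2207 CPM in Biotin+ and 1656, 1933 and 1740.3 CPM in Biotin-, and its blocked log2 fold change was 0.59 ± 0.20 (edgeR adjusted p = 0.0456). Here the groups did not overlap by TMM-scaled CPM, and Biotin+ replicate 2 stood far above the other 5 libraries.
Rpl37, a zinc-binding large subunit protein, had 961, 1445 and 886 CPM in Biotin+ and 652, 899 and 725 CPM in Biotin-, with a blocked log2 fold change of 0.51 ± 0.17 (edgeR adjusted p = 0.0495). Biotin- replicate 2 lay just above Biotin+ replicate 3.

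With pair 1 or pair 3 left out, the blocked test called 0 members. The log2 fold changes of the 4 were then 0.49 to 0.76 without pair 1 and 0.59 to 0.72 without pair 3, with standard errors of 0.28 to 0.31. With pair 2 left out, it called 7 higher and 1 lower of the members, against 8.55% of all genes higher and 14.9% lower. The 7 higher calls are again near the share over all genes. The 7 were Rps15a, Rps26, Rpl37, Rpl4, Rps23, Rpl27a and Rpl29, so Rpl41 lost its call (log2 fold change 0.24, edgeR adjusted p = 0.107). The 1 lower member was Rplp1, with a log2 fold change of -0.31 ± 0.10 (SE, 2 pairs; edgeR adjusted p = 0.0437). That fit has 2 pairs and was added with the data known.

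To ask which members leave the common level, libraries were also scaled to the median ratio over the family itself. By edgeR, 0 members passed as higher and 0 as lower of 80 under this scaling, in which 2.57% of all genes were called in either direction, and the blocked fit also called 0. Before adjustment, edgeR gave p under 0.05 for 0 higher members and 1 lower one, and limma-voom for 0 and 2; limma-voom also called 0 after adjustment.

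Rpl10, an X-linked protein that joins the large subunit last and lies near its catalytic centre, was the member with that low p. Scaled to the family, it had 35874, 32760.4 and 33417 counts in Biotin+ and 45874, 42848 and 41078 counts in Biotin-. All 3 Biotin+ values lay below all 3 Biotin- values. The log2 fold change relative to the family was -0.35 ± 0.13 (SE, n = 3 each; edgeR unadjusted p = 0.0270, adjusted p = 0.202). By TMM scaling the same gene was level, averaging 2158 ± 582 CPM (SD, n = 3) in Biotin+ against 2145 ± 205 CPM (SD, n = 3) in Biotin-, where most members were higher.
Among the 76 expressed members Rplp1 came next, at -0.29 ± 0.15 relative to the family, with 45659, 46894 and 47099 counts in Biotin+ and 61079, 47224 and 62251 counts in Biotin-. Biotin- replicate 2 sat close to the Biotin+ libraries and the other 2 Biotin- libraries well above.
Rps2, Rps14, Rps4x and Rpl7 completed the low end of the 76, at -0.17, -0.17, -0.16 and -0.11. By TMM-scaled CPM, Rpl10, Rplp1, Rps2 and Rps14 were also among the 6 members that were lower in Biotin+ in pairs 1 and 3 but higher in pair 2.

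At the high end of the 76 relative to the family stood Rps15a (0.29), Rpl41 (0.28), Rps26 (0.27), Rpl23a (0.20), Rpl38 (0.20) and Rps7 (0.19), none of which passed. Of these, Rps15a, Rpl41, Rpl23a and Rps7 were also among the 6 members farthest above the median member in Biotin+ replicate 2. Both orders use the values of that library, so this overlap is partly built in.

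**Figure D2:**
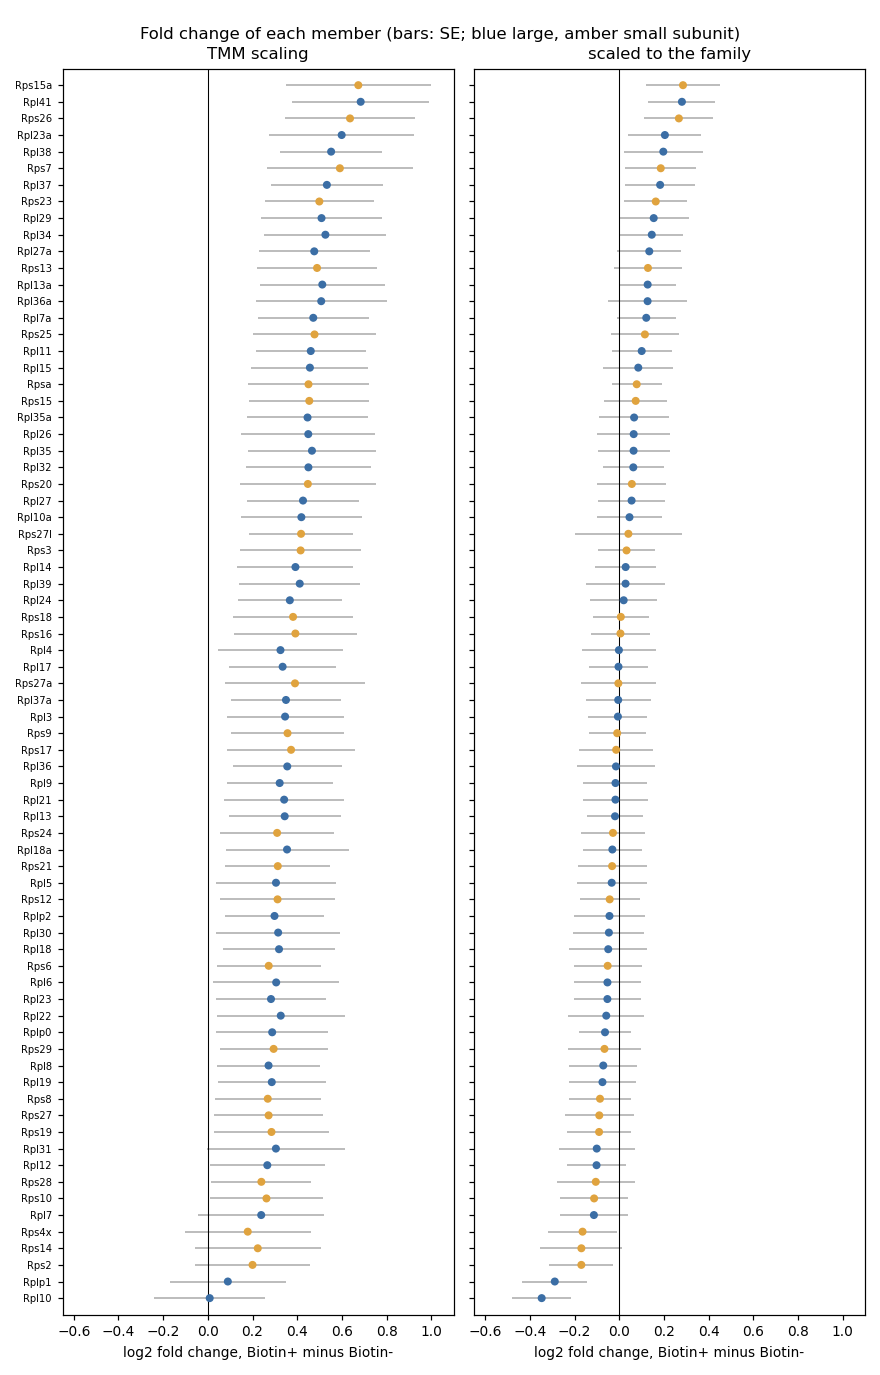
Log2 fold change of 74 of the 76 expressed members, Biotin+ over Biotin- (horizontal axes), with the standard error as a bar, by TMM scaling on the left and scaled to the family on the right. By TMM all 74 points lie at or right of 0, a direction that turns under scaling to CD8 identity genes, whose own TMM fold changes are positive. Scaled to the family they run from Rpl10 at -0.35 to Rps15a at 0.29.

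Grouped by role, in lists chosen with earlier results known, the medians lay between 0.28 and 0.45, apart from the list of 5 paralogs. Only 2 of those were tested, with a median of 0.26. The 2 members that bind the small ribosomal RNA of the large subunit, Rpl5 and Rpl11, had log2 fold changes of 0.30 and 0.46. The 4 proteins of the acidic stalk and its base had a median of 0.28, the 8 around the peptide exit tunnel 0.37, and the 8 of the small subunit head and mRNA channel 0.39. A list of 5 members known to bind MDM2 and so hold back p53 degradation (Rpl5, Rpl11, Rpl23, Rpl26, Rps7) had a median of 0.45. A list of 17 genes mutated in Diamond-Blackfan anaemia had 0.32. Neither list is complete. The 80 tested members had a median of 0.35. None of these genes passed the edgeR test without the block. With it, Rps26 was the 1 call in the head and channel list and the 1 in the anaemia list. Rps15a, which also passed with the block, is on neither list.

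Biotin+ replicate 2 is the library in which the family stands apart. Against the mean log2 share of Biotin+ replicates 1 and 3, all 76 members were higher, by 0.12 to 0.84 on the log2 scale with a median of 0.44, while the median of the 8595 genes with at least 10 CPM was -0.24. Of the 76, 68 had their highest share of counts of the 6 libraries in Biotin+ replicate 2 (89.5%), against 12.8% of all genes tested. 6 had it in Biotin- replicate 2 and 2 in Biotin- replicate 3.
Within that shared difference the members were unequal. Rps7, a small subunit protein that also binds MDM2, took 0.206%, 0.365% and 0.203% of counts in Biotin+ replicates 1, 2 and 3, and 0.184%, 0.233% and 0.193% in Biotin-. Rpl31, at the tunnel exit, took 0.0921%, 0.169% and 0.102% in Biotin+ and 0.103%, 0.125% and 0.122% in Biotin-. Both stood in replicate 2 far above every other library.
Rps6, the substrate of S6 kinase, lay at the other end, with 0.184%, 0.193% and 0.172% in Biotin+ and 0.166%, 0.198% and 0.165% in Biotin-. Here Biotin+ replicate 2 was not the highest of the 6. Rpl8, close to the catalytic centre, took 0.314%, 0.354% and 0.327% in Biotin+ and 0.326%, 0.287% and 0.351% in Biotin-.
The 6 members farthest above the median member, each with its log2 difference from replicates 1 and 3, were Rps7 (0.84), Rpl31 (0.81), Rpl23a (0.78), Rps27a (0.76), Rpl41 (0.76) and Rps15a (0.75). The 6 farthest below were Rps6 (0.12), Rpl8 (0.14), Rplp2 (0.16), Rpl9 (0.23), Rpl17 (0.23) and Rps28 (0.23). By role, the exit tunnel list had the highest median, 0.61 over 8 genes, and the stalk and the proteins bound to the small ribosomal RNA the lowest, both 0.35.

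**Figure D3:**
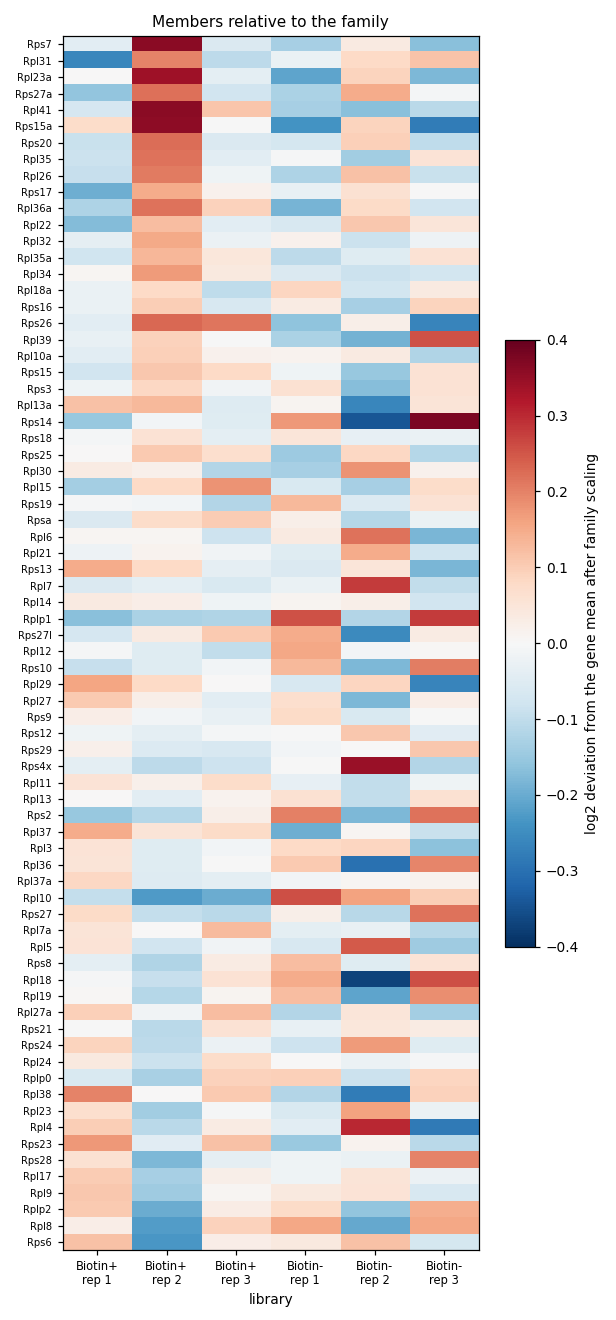
Heat map of the log2 deviation of 74 of the 76 expressed members (rows, ordered by their value in Biotin+ replicate 2 against the other Biotin+ libraries) from its own mean over the 6 libraries (columns), after scaling to the family. Red is above and blue below the gene's mean, up to 0.4 either way; Rps7 is at 0.36 and Rps6 at -0.23 in Biotin+ replicate 2.

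The other genes of the translation machinery followed the family in that library to different degrees. Of the 7 relatives outside the pattern, 6 were higher in Biotin+ replicate 2 than in the other 2 Biotin+ libraries, with a median log2 difference of 0.40. Rpl7l1, a paralog with a role in ribosome assembly, had a log2 difference of -0.10, with Biotin+ replicate 2 lying between replicates 1 and 3. It had 62.5, 65.1 and 78.2 raw CPM (without TMM factors) in Biotin+, against 77.7, 74.2 and 76.1 raw CPM in Biotin-. Of 18 elongation factors and other TOP mRNAs, 16 were higher than the mean log2 value of Biotin+ replicates 1 and 3, with a median of 0.24. Eef2, which moves the ribosome along the mRNA, was higher by 0.44 and Tpt1 by 0.43, while Pabpc1, the poly-A binding protein, differed by -0.42. The 31 initiation factors had a median of 0.09, the 49 ribosome biogenesis genes -0.11, and the 21 genes of mTORC1, LARP1 and MYC control -0.38.

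Other features moved with the same library. Biotin+ replicate 2 had the lowest TMM factor (0.815, against 0.980 to 1.13 elsewhere) and the lowest sample weight in voom (0.438). Both are computed from the same counts as the family's share and are not independent of it. 2 RNAs kept in the nucleus were low in it: Malat1 had 97.7, 35.2 and 263 raw CPM in Biotin+ and 89.9, 182 and 285 in Biotin-, and Neat1 had 42.5, 10.6 and 73.1 raw CPM in Biotin+ and 46.3, 40.9 and 142 in Biotin-. The 7 mitochondrially encoded genes had a median difference of -0.06 and the 15 CD8 identity genes 0.14. Of the markers of other cells with at least 10 CPM, the 10 fibroblast and endothelial ones had a median of -0.85 with 0 positive, and the 12 macrophage and monocyte ones 0.22 with 7 positive.
Long transcripts were low there and short ones high. Across 8308 other genes with at least 10 CPM, the difference of Biotin+ replicate 2 from replicates 1 and 3 correlated with log2 transcript length at Pearson's r = -0.52 and Spearman's rho = -0.55, a description across genes that share these 3 libraries. Ribosomal protein transcripts are short, with a median of 756 bases against 2872 for those others. Among transcripts under 750 bases, the median difference was 0.49 for 36 members and 0.33 for 248 other genes. From 750 to under 1500 bases it was 0.38 for 33 members and 0.17 for 1156 others, and from 1500 to under 3000 bases 0.33 for 5 members and -0.12 for 2981 others. At 3000 bases or more it was 0.74 for 2 members, Rps15a and Rps20, whose lengths are uncertain, and -0.53 for 3923 others. Among the members alone the correlation with log2 length was r = 0.01 and rho = -0.15 (n = 76), and r = -0.20 and rho = -0.23 without Rps15a and Rps20 (n = 74, a choice made with the data known). The part of transcript length in the high share was not tested.

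**Figure D4:**
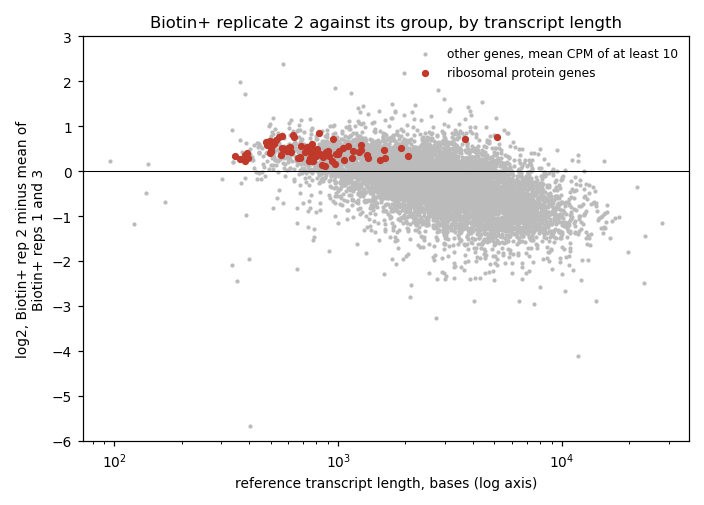
Log2 difference of each gene in Biotin+ replicate 2 from the mean of Biotin+ replicates 1 and 3 (vertical axis) by reference transcript length in bases (horizontal, log axis), for 8308 other genes (grey) and the 76 expressed members (red). Grey points slope downward with length; all red points lie above 0.

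Biotin- replicate 2 showed another pattern, in which single members lay apart in both directions. Against Biotin- replicates 1 and 3 its median member differed by 0.10 on the log2 scale, with 50 of 76 positive. Relative to the median member, Rpl4, an exit tunnel protein, was higher there by 0.48 and the X-linked Rps4x by 0.42. Rps14, a small subunit protein of the platform, differed by -0.60 and Rpl18 by -0.55.
In shares of counts, Rps14 took 0.239%, 0.353% and 0.255% in Biotin+ and 0.285%, 0.225% and 0.353% in Biotin-. Rpl4 took 0.312%, 0.363% and 0.297% in Biotin+ and 0.270%, 0.386% and 0.246% in Biotin-. Rps14 was thus lowest of all libraries in Biotin- replicate 2, and Rpl4 highest.
These deviations moved with base composition. Across the 76 members they correlated with the GC content of the transcript at r = -0.62 and rho = -0.63, and across 8308 other genes at r = -0.48 and rho = -0.52, again descriptions across genes that share 3 libraries. The 26 members lowest in GC deviated from their own means by a median of 0.09 in Biotin- replicate 2, and the 25 highest in GC by -0.13. For Biotin+ replicate 2 the same correlation over members was r = -0.06. The part of GC content in the single members was not tested.

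**Figure D5:**
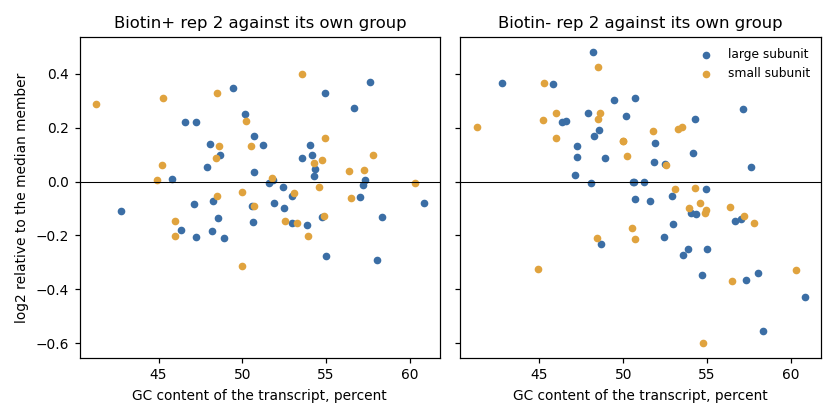
Log2 difference of each of the 76 expressed members from the median member (vertical axis) by GC content of its reference transcript in percent (horizontal), for Biotin+ replicate 2 against its own group (left) and Biotin- replicate 2 against its own group (right); large subunit in blue, small subunit in amber. The right panel slopes downward (r = -0.62) and the left does not (r = -0.06).

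Once the libraries were scaled to the family, the members varied little. Over the 6 libraries the median SD of log2 values was 0.12 for 75 members with at least 100 CPM, against 0.33 for 1863 other genes at that level on the same scaling. Rpl14 (0.04), Rps18 (0.04) and Rps9 (0.05) were the steadiest, and Rps14 (0.25), Rps15a (0.24) and Rpl18 (0.22) varied most. Rps18 had 2477, 4171 and 2351 CPM in Biotin+ and 2220.0, 2513 and 2176 CPM in Biotin-, high in Biotin+ replicate 2 like the family's share. Since the scaling was set on the members, a smaller spread among them is partly built in.

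In the list of mTORC1, LARP1 and MYC control, which govern ribosome production, 2 of 21 tested genes fell and 0 rose by edgeR, where 6.72% of all genes fell and 1.53% rose, so the list's share is near that of all genes. Myc, the transcription factor that drives ribosome biogenesis, had 45.6, 56.3 and 65.5 CPM in Biotin+ and 112, 139 and 176 CPM in Biotin- (log2 fold change -1.35 ± 0.23, edgeR adjusted p = 0.00837). Eif4ebp1, the inhibitor of cap-dependent translation that mTORC1 inactivates, had 36.5, 39.5 and 55.5 CPM in Biotin+ and 107, 66.1 and 136 CPM in Biotin- (-1.23 ± 0.28, edgeR adjusted p = 0.0251). In both the groups did not overlap. Myc passed without each single library, whereas Eif4ebp1 lost its call without Biotin+ replicate 1 or 2 or Biotin- replicate 1 or 3 (edgeR adjusted p = 0.0618 to 0.118).
Among 49 ribosome biogenesis genes, 0 passed in either direction without the block (edgeR; 1 lower at an unadjusted p under 0.05). The nucleolar GTPase gene Gnl3 was that 1, with 27.8, 21.1 and 31.1 CPM in Biotin+ and 39.7, 43.4 and 52.9 CPM in Biotin-, and it fell in the blocked fit (edgeR adjusted p = 0.0170). Ddit4, an mTORC1 inhibitor, rose in the blocked fit alone, with 157, 398 and 224 CPM in Biotin+ and 122, 214 and 107 CPM in Biotin- (edgeR adjusted p = 0.00867 with the block, 0.207 without). Of 9 genes of ribosome stress and the p53 response, 1 fell, Phlda3, with 9.82, 9.63 and 19.7 CPM in Biotin+ against 41.0, 27.3 and 76.4 CPM in Biotin- (-1.89 ± 0.41, edgeR adjusted p = 0.0202). Phlda3, too, lost its call without Biotin+ replicate 1 or 2 or Biotin- replicate 3 (edgeR adjusted p = 0.0665 to 0.0936). None of the 31 initiation factors or 18 elongation and other TOP genes passed in either fit. Their medians were 0.12 and 0.22, against 0.35 for the members.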

How the data were processed

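Poly-A RNA of 3 Biotin+ and 3 Biotin- samples was measured. The authors deposited raw counts, 1 row per gene symbol and 1 column per sample, per the labels. The submitters' processing notes name Trim Galore 0.6.7, STAR 2.7.10a, Picard 1.14, featureCounts 2.0.1 and GRCm39, without roles. The annotation, strand setting and handling of reads with several matches are not given there, so reads of overlapping or antisense partners may be mixed or missing. Totals were 16423106 to 19640693 counts per library; no molecular identifiers are named, so intervals and floors cover counting error only.

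Counts were fitted in R 4.3.3 with edgeR 4.0.16 (filterByExpr, TMM, robust quasi-likelihood test, group only, threshold 0.05 on Benjamini-Hochberg adjusted p over 13360 genes), and again with libraries scaled to the median ratio over the members. DESeq2 1.42.0 and limma 3.58.1 (voom with sample weights), other scalings, other filters, each library left out and the replicate number as a block were alternatives. The code was tested on simulated data with 200 changed genes. Deviations of log2 CPM from group means correlated at 0.42, 0.27 and 0.43 between Biotin+ and Biotin- samples of the same number and at -0.11 to -0.30 otherwise. Such deviations cancel within a group, so the negative values follow from the positive ones and add no separate information. Because of the positive values, the replicate numbers were treated as pairs. This rests on the data, since the labels do not say what a number marks. No library repeated another of its group within counting error (chi-square over degrees of freedom from 35.6 to 102.7).

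Transcript length and GC content (shortest principal transcript), overlaps and shared stretches of 75 bases came from GENCODE M21 on GRCm38, another build than the authors', and were matched by symbol. Protein sequences were not used here. Named members were the 10 with the highest mean CPM, any that passed, the 6 at each end of the family-scaled fold changes, the 6 at each end in Biotin+ replicate 2, the paralogs, and up to 4 genes per list with the smallest p; further names were chosen after their values were seen. The members and lists were chosen with earlier results of these data known. A few members and relatives enter the counts and fits and are not reported here by name.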

Additional observations from a re-analysis of the deposited data

How the results depend on the processing

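The 0 calls among members, in each direction, held under median-ratio size factors, upper quartile, library size alone, 2 other filters, DESeq2, limma-voom and without each single library (0 to 0). The median log2 fold change of the 76 expressed members was 0.12 by library size alone, 0.24 by limma-voom, 0.28 by upper quartile, and 0.07 to 0.50 without single libraries, lowest without Biotin+ replicate 2. Scaled to CD8 identity genes it reversed to -0.46, with 29 members lower; there Rplp0 (-0.53), Rps2 (-0.64), Rpl8 (-0.55), Rpl4 (-0.45), Rpl13 (-0.48), Rpl3 (-0.46), Rplp1 (-0.76), Rpl10 (-0.81), Rps4x (-0.61), Rpl7 (-0.56), Rps6 (-0.52), Rplp2 (-0.52), Rpl9 (-0.48), Rpl17 (-0.47), Rps28 (-0.58), Rpl7l1 (-0.73), Rack1 (-0.52), Rps3a1 (-0.54), ND1 (-0.56) and ND4 (-0.63) passed as lower, since that scaling sets genes higher in Biotin+ level. The replicate block called 4 members higher and 0 lower; with pair 2 left out, chosen after seeing the data, it called 7 higher and 1 lower, and with pair 1 or 3 left out 0 and 0. The difference in summed share was -0.265 to 2.19 points without single libraries, reversed without Biotin+ replicate 2 (the cause was not tested). It was 1.36 to 3.79 points over other denominators and lists. Over the pairs the mean is 1.37 points by arithmetic, so only the p-value is new (exact sign-flip permutation p = 0.75). With 3 pairs that test cannot fall under 0.05. Among other named genes, Gnl3, Ddit4, Neat1, Mrc1, Itgam, Cd4 and Cdh1 passed with the block and not without it. Relative to the family, 0 members passed under every alternative run. Members under 10 CPM were limited by depth.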
